A study of Mus musculus with 29 samples.

Results

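The genes described here are 7 transcripts that separate the 2 main kinds of mouse monocyte. Ly6c2, Plac8 and Vcan are high in classical monocytes, and Ace, Treml4, Spn and Eno3 are high in nonclassical monocytes. They were chosen by name as markers of the 2 kinds, with earlier results of these data known, and all 7 were present in each deposited count table (16623 genes for blood, 19704 for young brain and 27514 for aged brain). Their levels were read in the cells the authors named Mo in blood and MdC, monocyte-derived cells, in the brain, and in the numbered subtypes of both.

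Classical monocytes leave the bone marrow carrying the surface protein encoded by Ly6c2, circulate briefly and enter injured tissue, where they turn into macrophages. Nonclassical monocytes arise from classical ones in the circulation under the transcription factor Nr4a1 and patrol the inner wall of blood vessels. After a stroke, classical monocytes are the main source of the macrophages that gather in the damaged brain. Ly6c2 encodes a small membrane-anchored protein of the Ly6 family, Plac8 a cysteine-rich protein, and Vcan the matrix proteoglycan versican. Ace encodes angiotensin-converting enzyme, Treml4 a receptor of the TREM family, Spn the sialoglycoprotein CD43, and Eno3 the muscle form of the glycolytic enzyme enolase.

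The data were single-cell RNA-seq libraries made by Drop-seq, in which single cells are caught in droplets with barcoded beads and transcripts are counted from their 3′ ends. Stroke was induced by blocking the middle cerebral artery for a time, and control mice had sham surgery. Young male C57BL/6J mice aged 8-10 weeks gave 4 brain libraries at day 2 after sham, 4 at day 2 after stroke and 4 at day 14 after stroke. From the blood of such mice there were 4 libraries at day 2 after sham, 4 at day 2 after stroke and 3 at day 14. Aged mice, 17-20 months old, gave brain libraries only: 2 after sham (1 male, 1 female) and 3 after stroke at day 2 (1 male, 2 female), and 1 female library at day 14 after stroke. Each brain library pooled 4 to 5 hemispheres, from which CD45high cells, microglia and endothelial cells were sorted after digestion with transcription blocked. Each blood library pooled the leukocytes of 2 mice after lysis and depletion of red cells. There was no sham group at day 14, so both stroke times were set against the same day 2 sham libraries. The p-values below measure only the spread between these pooled libraries.

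The 29 libraries held 1143 to 6328 cells each. Mo cells numbered 349 to 867 in each sham library and 213 to 1029 in each stroke library. MdC were few in sham brain, 33 to 99 cells and 18300 to 112149 counts a library, against 87 to 2180 cells and 57112 to 3146170 counts after stroke. A sham brain value of a gene with few counts therefore carries a large error. Levels are given as CPM, the counts of a gene summed over the Mo or MdC cells of a library and scaled to the total of all their counts, and such a sum cannot tell a change in the mix of cells from a change within each cell. The summed level of a monocyte and macrophage marker list was 32282 to 59991 CPM in Mo and 23481 to 50836 CPM in young MdC, with no marker of it at 0. Neutrophil markers summed to 0 to 3404 CPM in MdC of young sham brain, with the highest value in replicate 1, and to 27.7 to 246 CPM in young stroke brain. In aged brain they summed to 691 to 1309 CPM after sham and 230 to 5234 CPM at day 2 after stroke, with the highest value in the male library. Markers of border-associated macrophages summed to 1061 to 1425 CPM in young MdC after sham, 480 to 741 CPM at day 2 and 361 to 526 CPM at day 14. Platelet markers summed to 0 to 254 CPM after sham and 129 to 590 CPM at day 2 in young MdC, and to 0 to 26.9 and 293 to 1462 CPM in aged MdC. In aged MdC endothelial markers summed to 135 to 322 CPM after sham and 0.672 to 31.3 CPM at day 2, and microglia markers to 149 to 227 and 60.0 to 123 CPM. Markers of conventional dendritic cells summed to 0 to 48.9 CPM in young MdC after sham, 7.21 to 18.2 CPM at day 2 and 28.4 to 66.6 CPM at day 14. In blood Mo, the border-associated list summed to 1314 to 2448 CPM at day 2 and 1059 to 1160 CPM at day 14, and the endothelial list to 38.9 to 85.8 and 96.3 to 115 CPM. The border-associated list holds F13a1, also one of the classical companion genes described below. In blood Mo at day 2, 3 to 4 of its 5 genes were at 0. The endothelial list holds Ly6c1, the near copy of Ly6c2, which made up all of its lowest aged sham value, 135 CPM. These 2 sums therefore do not mark other cells alone. The part of other cell types in the results was not tested.

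On the mouse build GRCm38 (mm10), Ly6c2 lies at chr15:75108158-75111970, Plac8 at chr5:100553725-100572245, Vcan at chr13:89655312-89742509 and Spn at chr7:127132232-127137823, all on the minus strand. Ace lies at chr11:105967945-105989964, Treml4 at chr17:48264295-48275360 and Eno3 at chr11:70657202-70662513, on the plus strand. All 7 are protein-coding. Vcan overlaps the antisense gene Gm4117 and the processed pseudogene Gm16318, and Ace the antisense gene Gm11651, and reads of any of these could be shared where strand was not used. Ly6c2 has a near copy, Ly6c1: 97.6% of the 822 aligned transcript bases were identical, so reads of the 2 can be split unevenly.

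The promoters of the 4 nonclassical genes are shown because these genes were read as a group throughout. Each run covers 300 bases, from 250 before to 50 after the annotated start, from RefSeq on GRCm38.p6, in the direction of transcription. All 7 members had an entry. Capitals mark 2 motifs found on either strand: GAGGAA, the core bound by the myeloid factor PU.1, and CACCC, the box bound by KLF factors. They lie at chr11:105967698-105967997 (Ace), chr17:48264045-48264344 (Treml4), chr7:127137774-127138073 (Spn, minus strand) and chr11:70656926-70657225 (Eno3).
Ace: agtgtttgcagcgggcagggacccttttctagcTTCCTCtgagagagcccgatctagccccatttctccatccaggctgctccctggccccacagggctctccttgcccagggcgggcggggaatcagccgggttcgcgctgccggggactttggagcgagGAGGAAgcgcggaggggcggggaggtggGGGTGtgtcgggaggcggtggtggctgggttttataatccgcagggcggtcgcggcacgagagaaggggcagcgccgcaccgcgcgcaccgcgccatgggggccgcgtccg
Treml4: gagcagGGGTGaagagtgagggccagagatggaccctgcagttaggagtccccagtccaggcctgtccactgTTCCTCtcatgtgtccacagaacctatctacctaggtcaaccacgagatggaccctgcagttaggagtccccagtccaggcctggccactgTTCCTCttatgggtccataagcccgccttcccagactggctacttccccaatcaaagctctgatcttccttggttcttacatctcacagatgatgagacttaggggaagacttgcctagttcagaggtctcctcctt
Spn: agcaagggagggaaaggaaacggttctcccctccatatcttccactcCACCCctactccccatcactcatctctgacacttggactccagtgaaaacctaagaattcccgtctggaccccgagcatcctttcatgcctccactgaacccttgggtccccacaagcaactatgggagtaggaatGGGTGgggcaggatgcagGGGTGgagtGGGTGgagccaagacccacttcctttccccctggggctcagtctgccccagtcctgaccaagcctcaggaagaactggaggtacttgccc
Eno3: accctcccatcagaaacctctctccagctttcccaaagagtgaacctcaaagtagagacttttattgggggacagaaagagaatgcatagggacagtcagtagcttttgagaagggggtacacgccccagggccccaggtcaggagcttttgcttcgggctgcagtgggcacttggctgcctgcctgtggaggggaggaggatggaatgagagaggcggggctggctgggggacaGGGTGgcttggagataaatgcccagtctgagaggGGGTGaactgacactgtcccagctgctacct

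GAGGAA was found 2 times in each of the windows of Ace, Treml4, Ly6c2 and Plac8, and 0 times in those of Spn, Eno3 and Vcan. Of all 27025 mouse promoter windows of this length, 28.3% held it. CACCC was found in all 7 windows, 4 times in Spn and Vcan, 3 in Plac8, 2 in Eno3 and 1 each in Ace, Treml4 and Ly6c2, and 56.7% of all windows held it. Neither AAAGGTCA, the element bound by Nr4a1, nor TTGCNNAA, a form of the C/EBP site, was in any of the 7 windows (1.46% and 10.8% of all windows). None of the searched motifs was therefore shared by the 4 nonclassical genes and missing from the classical ones.

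In blood monocytes 1 of the 7 genes passed the test, the classical gene Vcan, which fell between day 2 and day 14 after stroke. Vcan stood at 340, 645, 250 and 151 CPM in sham replicates 1 to 4, at 357, 1006, 737 and 352 CPM at day 2, and at 94.2, 71.6 and 92.7 CPM at day 14. Every day 14 library lay below every sham and day 2 library, while sham and day 2 overlapped. In edgeR's quasi-likelihood test the log2 difference between day 14 and day 2 was -2.79 ± 0.43 (SE), with an adjusted p of 0.00388. Of all genes tested, 0.537% passed and 0.447% were lower at that threshold (adjusted p under 0.05). Without day 14 replicate 2 the difference was -2.64 with an adjusted p of 0.0553. Between day 14 and sham the difference was -1.99 ± 0.42 and the adjusted p 0.0599, in a comparison where 0.254% of genes passed. In 4 alternatives the test took this second difference past the threshold: with DESeq2 (0.000675), with no filter on low counts (2.08e-10), with the replicate number as a block (0.00752) and without sham replicate 4 (0.0208).

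Ly6c2 in blood monocytes was 793, 757, 1494 and 1292 CPM after sham, 946, 679, 1282 and 1302 CPM at day 2 and 1911, 1482 and 1493 CPM at day 14. The day 14 libraries were at the upper end of the sham range or above it. Plac8 spread widely within each group, from 2026 to 5355 CPM after sham, 1714 to 4155 CPM at day 2 and 3039 to 4535 CPM at day 14. Neither gene passed the test at either time: the log2 differences of Ly6c2 were -0.03 at day 2 and 0.56 at day 14 against sham, and those of Plac8 were -0.22 and -0.01.

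The 4 nonclassical genes did not pass the test in blood at either time. Ace, the peptidase, was 238, 152, 51.3 and 120 CPM after sham, 92.7, 119, 53.2 and 71.6 CPM at day 2 and 94.3, 128 and 201 CPM at day 14. Treml4 was 286, 131, 131 and 224 CPM after sham, 141, 163, 45.5 and 179 CPM at day 2 and 220, 209 and 263 CPM at day 14. Spn ranged from 107 to 321 CPM after sham, 70.9 to 198 CPM at day 2 and 160 to 281 CPM at day 14, and Eno3 from 63.6 to 245, 31.9 to 105 and 104 to 136 CPM. The sham range overlapped both stroke groups for all 4 genes, and day 14 overlapped day 2 for Ace, Spn and Eno3. Treml4 was higher in the day 14 libraries than at day 2 without passing the test, which 0.537% of all genes passed. At day 2 the log2 differences from sham were -0.77 (Ace), -0.53 (Treml4), -0.55 (Spn) and -0.87 (Eno3), and at day 14 they lay between -0.22 and 0.24. Between day 14 and day 2 they were 0.76, 0.77, 0.67 and 0.64 in the same order, with no adjusted p under the threshold. At day 2 no gene of 6706 passed (0% in edgeR, 189 genes at an unadjusted p under 0.05, and up to 13 over the other tools and settings).

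**Figure D1:**
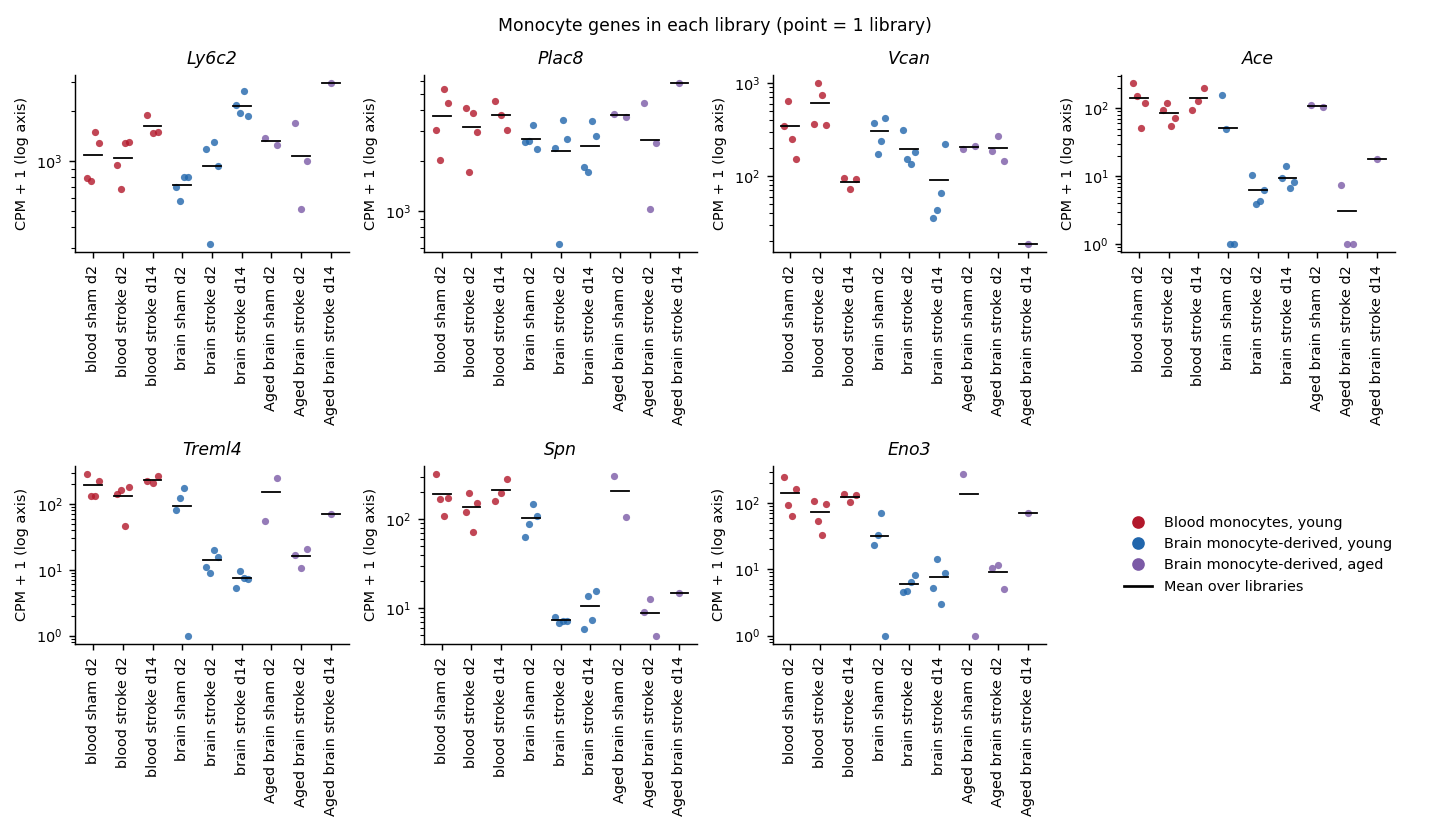
CPM of the 7 genes (vertical axis, log scale) in each library, one point per library, summed over Mo cells in blood and MdC in young and aged brain, by group. The nonclassical genes are under 20 CPM in every young stroke brain library, and Vcan in blood is lowest in the 3 day 14 libraries.

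In the brain, monocyte-derived cells after stroke carried far less of the nonclassical genes Spn and Treml4 than those of sham brain, and by day 14 more Ly6c2. Ly6c2 was 703, 571, 807 and 805 CPM after sham, 1188, 315, 1308 and 941 CPM at day 2 and 2183, 1964, 2647 and 1883 CPM at day 14. All day 14 libraries lay above all others, and day 2 replicate 2 lay below every sham library. The rise at day 14 was 2.05 ± 0.38 on the log2 scale (edgeR's quasi-likelihood test, adjusted p = 0.00446), in a comparison where 4.21% of genes were higher. At day 2 the difference was 0.88 ± 0.37 (adjusted p = 0.184), and 1.10 (adjusted p = 0.023) without day 2 replicate 2. The median gene moved by 0.29 and 0.28 at the 2 times under the same scaling, so Ly6c2 stood 1.77 above the median gene at day 14. Of the called genes 84.3% were higher at day 2 and 81.7% at day 14, against 50.7% and 50.1% when scaled by library size alone. Ly6c2 at day 14 and Spn and Treml4 at both times passed under either scaling.

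Plac8 did not pass at either time, with log2 differences of 0.27 and 0.32, close to the median gene, and of -0.23 and -0.12 when scaled by library size alone. Its levels were 2360 to 3251 CPM after sham, 629 to 3493 CPM at day 2, where replicate 2 was again the low one, and 1720 to 3468 CPM at day 14. Vcan was 371, 170, 237 and 422 CPM after sham, 314, 151, 133 and 180 CPM at day 2, and 34.3, 42.0, 65.3 and 219 CPM at day 14. Day 14 replicate 4 lay within the sham range and the other 3 lay below every other library. The day 14 difference of Vcan from sham was -1.33 ± 0.55 (adjusted p = 0.212), but -2.14 (adjusted p = 0.00975) without that replicate and -1.57 (adjusted p = 0.0187) with the replicate number as a block. It was -0.53 (adjusted p = 0.638) in the libraries over 1% mitochondrial counts and -0.23 (adjusted p = 0.964) in the subtype MdC3 alone, and 2 of 17 alternatives called it.

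Between the stroke times themselves, same-numbered brain libraries deviated together, and the blocked fit is given beside the main one. Ly6c2 was 1.17 ± 0.35 higher on the log2 scale at day 14 than at day 2 without the block (adjusted p = 0.133), and 1.28 with it (adjusted p = 0.025). For Vcan these values were -1.17 ± 0.49 (adjusted p = 0.343) and -1.39 (adjusted p = 0.0107). Without day 14 replicate 4 Vcan was at -2.12 (adjusted p = 0.0212), and in the libraries with over 1% mitochondrial counts, which include that replicate, at -0.33 (adjusted p = 0.736). Without the block 1.79% of genes passed, 145 in all, and with it 469. Neither fit called any of the other 4 members tested. In blood the fall of Vcan over the same interval was -2.79, and the test of the difference between the tissues did not pass (1.52 ± 0.69, adjusted p = 0.751, with 0.0379% of genes passing).

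Spn, the CD43 gene, was 61.7, 86.0, 147 and 108 CPM in sham brain MdC, 6.88, 5.82, 6.24 and 6.19 CPM at day 2 and 4.79, 12.8, 6.39 and 14.7 CPM at day 14. No stroke library came near a sham one, although the sham values rest on 1.98 to 6.92 counts each. It fell by 3.43 ± 0.47 at day 2 (edgeR's quasi-likelihood test, adjusted p = 0.000715) and by 3.07 ± 0.49 at day 14 (adjusted p = 0.00181). Genes called at day 2 made up 6.71% of those tested and at day 14 5.15%, and those called lower 1.05% and 0.941%. Treml4 was 80.0, 120, 172 and 0 CPM after sham, 10.2, 7.94, 19.3 and 14.7 CPM at day 2 and 4.39, 8.61, 6.48 and 6.28 CPM at day 14. Sham replicate 4, the library with the fewest MdC counts, held no count of it, and the other sham libraries lay above all stroke libraries. Treml4 fell by 2.47 ± 0.54 at day 2 (adjusted p = 0.0132) and by 3.59 ± 0.60 at day 14 (adjusted p = 0.00225). The day 2 difference missed the threshold when sham replicate 2 was left out (-2.15, adjusted p = 0.0836) and when replicate 3 was (-2.01, adjusted p = 0.106).

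Ace and Eno3 were uneven between the sham libraries. Ace was 156, 48.0, 0 and 0 CPM after sham, 2.89 to 9.44 CPM at day 2 and 5.78 to 13 CPM at day 14, and it did not pass the filter on low counts, so 3 of the 4 nonclassical members were tested in the brain. Without that filter its day 2 difference was -2.99 (adjusted p = 0.0154). It met the filter when a sham library was left out: without replicate 1, the highest, the difference was -1.70 (adjusted p = 0.418), and without replicate 2, 3 or 4 it passed, at -3.29, -3.54 and -3.43. Eno3 was 21.9, 31.9, 69.9 and 0 CPM after sham, 3.59 to 7.36 CPM at day 2 and 1.99 to 13.1 CPM at day 14. Its log2 differences were -2.19 ± 0.83 (adjusted p = 0.135) and -1.99 ± 0.85 (adjusted p = 0.238).

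A set of 5 young brain libraries (sham replicate 1 and replicates 1 and 2 of each stroke time) stood apart with a median mitochondrial share under 1% of counts. With that split as a term, and in the other 7 libraries alone, Treml4 and Spn at both times and Ly6c2 at day 14 stayed past the threshold. Ly6c2 at day 14, for example, was 2.11 (adjusted p = 0.0015) and 2.04 (adjusted p = 0.0028) above sham in these 2 fits. The near copy Ly6c1 was listed at 147 and 204 CPM in day 14 replicates 1 and 2 and at practically 0 in replicates 3 and 4, while Ly6c2 was high in all 4.

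**Figure D2:**
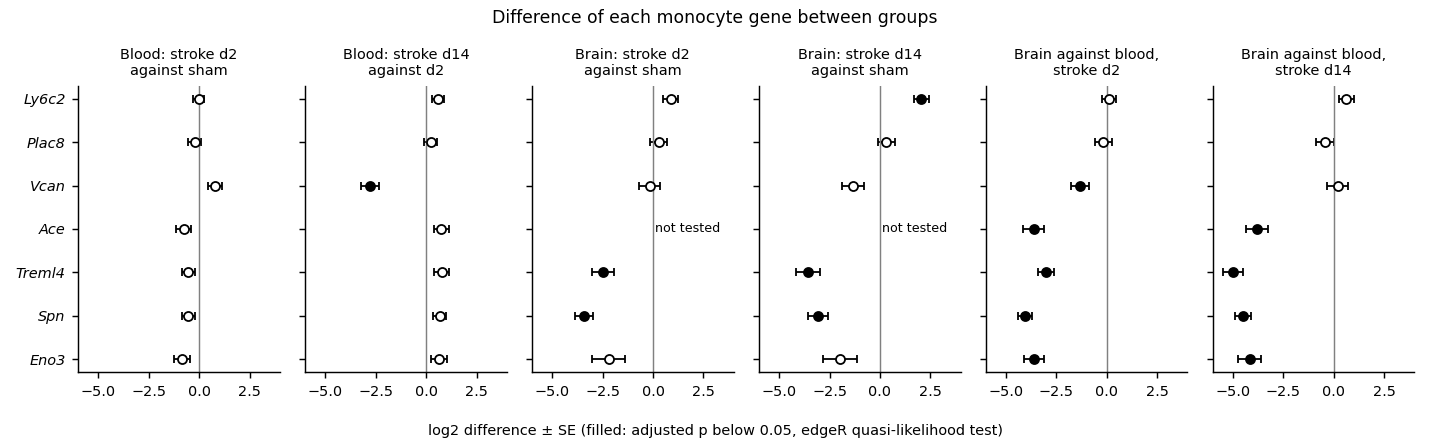
Log2 difference of each member (horizontal axis) in each comparison, with bars of 1 SE, filled where the adjusted p was under 0.05 in edgeR's quasi-likelihood test. Spn and Treml4 lie below 0 in both brain comparisons with sham, and all 4 nonclassical genes lie between -5.0 and -3.0 where stroke brain is set against stroke blood.

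Setting brain MdC against blood Mo of the same condition compares cells that differ in tissue, dissociation, sorting and the authors' class at once, and these cannot be told apart. After stroke the 4 nonclassical genes were lower in the brain at both times. After sham all 4 also lay below 0, on few MdC counts, and none of the 7 passed. Whether the gap differed between sham and stroke was not tested. At day 2 the log2 differences were -3.63 ± 0.52 for Ace (edgeR's quasi-likelihood test, adjusted p = 1.02e-05), -3.01 ± 0.41 for Treml4 (5.84e-06), -4.06 ± 0.36 for Spn (1.78e-08) and -3.59 ± 0.50 for Eno3 (7.26e-06). The background was wide, since 26.4% of genes passed and 12.4% were lower. At day 14, where 16.4% of genes passed and 7.78% were lower, they were -3.79 ± 0.54 for Ace, -4.99 ± 0.49 for Treml4, -4.50 ± 0.40 for Spn and -4.18 ± 0.55 for Eno3. The adjusted p-values were then 1.6e-05, 1.12e-07, 2.11e-08 and 5.46e-06. These 8 calls held under every alternative run. After sham the 4 differences were -0.96 (-2.62, adjusted p = 0.147, without brain sham replicate 1, the library highest in Ace), -1.09, -1.21 and -2.32 (lowest adjusted p 0.0675, for Eno3, which passed at 0.0429 without blood sham replicate 3), and 2.45% of genes passed.

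Ly6c2 and Plac8 did not differ past the threshold between brain and blood in any condition. The log2 differences of Ly6c2 were -0.84 after sham, 0.11 at day 2 and 0.62 at day 14, and those of Plac8 -0.70, -0.17 and -0.42. Vcan was 1.33 ± 0.45 lower in the brain at day 2 on the log2 scale (adjusted p = 0.0300). It missed the threshold in 7 of 14 alternatives, with adjusted p-values up to 0.115, and its differences after sham and at day 14 were -0.37 and 0.19.

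In aged brain 1 of the 4 nonclassical genes, Spn, passed the test at day 2, and it fell, in a comparison where 2.56% of genes were called and 0.245% were called lower. Spn was 302 CPM in the sham female library and 105 CPM in the sham male library, against 8.16, 11.6 and 3.91 CPM in the stroke libraries. It fell by 4.06 ± 0.62 (edgeR's quasi-likelihood test, adjusted p = 0.00308). Without the sham female library the difference was -2.78 (adjusted p = 0.228), and without the stroke male library, the one highest in neutrophil markers, -4.39 (adjusted p = 0.00461). Ace was 110 and 105 CPM after sham, from 4 and 3 counts, and 6.4 CPM, or listed at practically 0, after stroke, a difference of -4.80 ± 1.37 (adjusted p = 0.0736). Over its alternatives it ran from -9.12 to -4.21 (adjusted p from 0.00243 to 0.350). The lowest, without stroke female replicate 1, leaves Ace at practically 0 in the stroke libraries, so it depends on the prior count. Treml4 was 55.1 and 245 CPM after sham and 9.79 to 19.4 CPM after stroke (-2.53 ± 0.83, adjusted p = 0.120), and without the sham male library, the higher of the 2, the difference was -1.07 (adjusted p = 0.777). Eno3 was 275 and 0 CPM after sham and 3.99 to 10.7 CPM after stroke (-3.53 ± 1.01, adjusted p = 0.0736), with the sham male library below every stroke library. Over its alternatives the difference of Eno3 ran from -4.37 to 6.00. The highest, without the sham female library, leaves sham with no count of Eno3, so it depends on the prior count and gives no direction. With DESeq2 all 4 passed.

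The classical genes did not pass in aged brain. Ly6c2 was 1378 and 1257 CPM after sham and 1694, 517 and 1009 CPM at day 2, Plac8 3830 and 3672 CPM against 4425, 1029 and 2569 CPM, and Vcan 193 and 210 CPM against 186, 267 and 143 CPM. The stroke male library was the lowest in Ly6c2 and Plac8 and the highest in Vcan. Aged and young stroke MdC at day 2 were also set against each other. All young mice were male, so age was separated from sex only through the few aged male libraries. With sex as a covariate Ly6c2 was -0.50, Plac8 -0.64 and Eno3 -0.016, against 0.23, 0.24 and 0.62 without it. No member passed there, and no gene of 8167 did (0% in edgeR, 154 genes at an unadjusted p under 0.05, up to 32 under other tools and settings, and up to 65 with 1 library left out).

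In blood the authors' subtypes differed in these genes. Since the subtypes were drawn from these cells' own expression, their levels are a description. Mo3 was the nonclassical subtype by these genes: averaged over libraries it held 417 CPM of Ace, 637 of Treml4, 584 of Spn and 445 of Eno3, against 66.2 of Ly6c2 and 11.3 of Vcan. Of all Mo counts, Mo3 held 85.4% for Ace, 85.1% for Treml4, 80.7% for Spn and 94.3% for Eno3. Mo1, Mo2 and Mo4 were classical by the same genes, with Ly6c2 at 1693, 1500 and 2515 CPM and Ace at 17.2, 10.6 and 9.58 CPM. Mo5 had 902 CPM of Ly6c2 and 122 of Ace. It held 7.72% of the Mo counts of Ace, but 4.70% for Treml4, 3.88% for Spn and 1.84% for Eno3. Its mean share of Mo cells was 5.85% after sham, 4.06% at day 2 and 9.26% at day 14. Plac8 was high everywhere, from 1951 CPM in Mo3 to 6325 in Mo4, so it separated the kinds least.

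**Figure D3:**
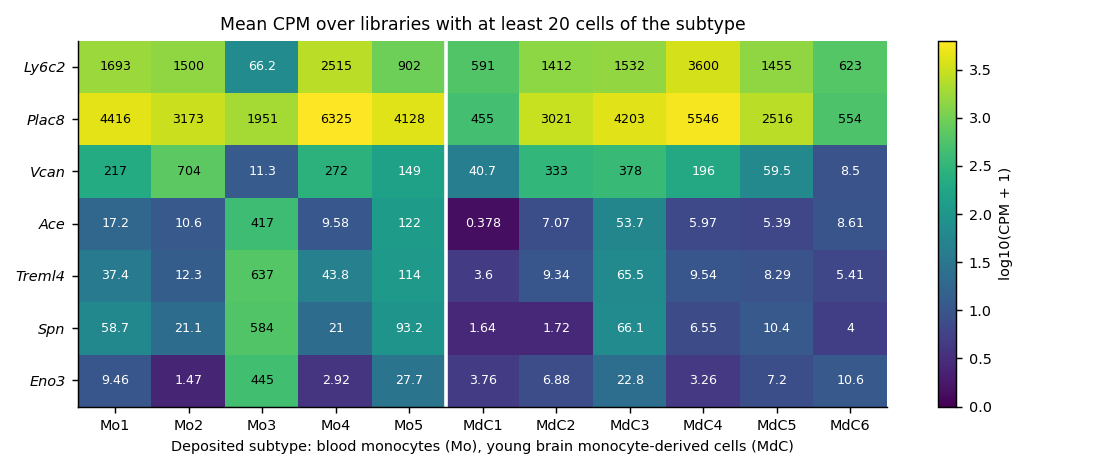
Mean CPM of each member (color, log scale) in the 5 blood Mo and 6 brain MdC subtypes, averaged over libraries with at least 20 cells of the subtype. Mo3 stands out in blood for the 4 nonclassical genes, and in the brain MdC3, the subtype whose mean includes sham libraries, lies at 22.8 to 66.0 CPM for them.

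Vcan differed most among the classical subtypes, and Mo2 held 74.7% of its counts in Mo. Its mean level was 704 CPM in Mo2, 272 in Mo4, 217 in Mo1 and 149 in Mo5. Mo2 was 34.0% ± 13.3 (SD, n = 4) of Mo cells after sham, 54.7% ± 4.0 (n = 4) at day 2 and 2.8% ± 1.7 (n = 3) at day 14, while Mo1 was 25.1%, 14.1% and 43.3% and Mo4 4.7%, 4.1% and 15.0%. Within Mo1, Vcan was 366, 354, 204 and 145 CPM after sham, 177, 380 and 211 CPM in the 3 day 2 libraries with at least 20 such cells, and 111, 100 and 118 CPM at day 14. All 3 day 14 values lay below the sham and day 2 values there too. In Mo2 it was 226 and 636 CPM in the 2 day 14 libraries with at least 20 such cells, against 366 to 1001 CPM after sham and 557 to 1522 CPM at day 2. Both the share of Mo2 and the level inside Mo1 were thus lower at day 14, as measured values without a test.

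**Figure D4:**
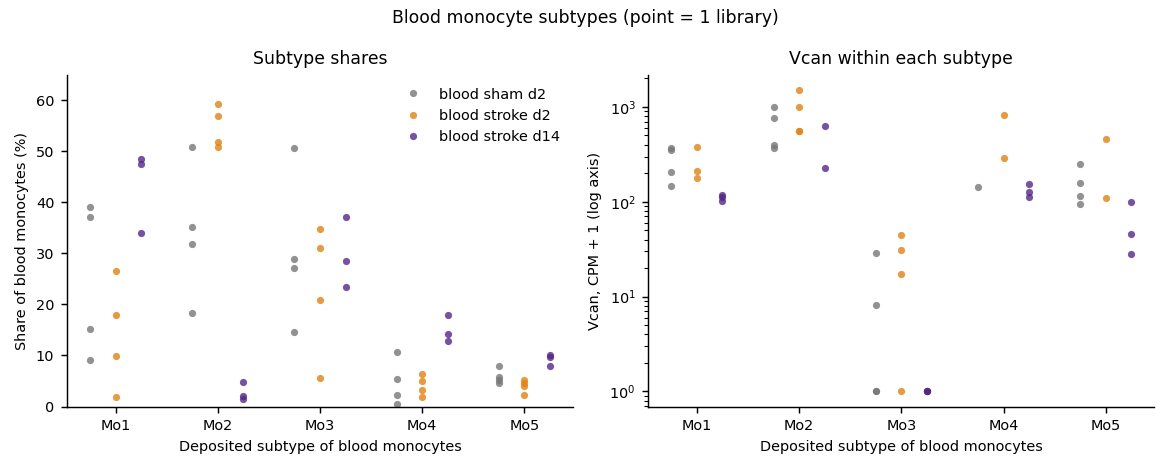
Vcan in blood: CPM of each library (vertical axis) within the Mo subtypes by group, with points only where a library had at least 20 cells of the subtype. The day 14 points of Mo1, at 100 to 118 CPM, lie below the sham points, at 145 to 366 CPM, and the day 2 points, at 177 to 380 CPM.

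Mo3 itself made up 30.3% ± 14.9 (SD, n = 4) of Mo cells after sham, 23.1% ± 13.1 (n = 4) at day 2 and 29.7% ± 6.9 (n = 3) at day 14. Inside it, Treml4 was 606, 531, 813 and 761 CPM after sham, 532, 470, 355 and 727 CPM at day 2 and 863, 660 and 685 CPM at day 14. These groups overlapped.

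Among the MdC subtypes of young brain, MdC3 averaged 53.7 CPM of Ace, 65.5 of Treml4, 66.0 of Spn and 22.8 of Eno3, well under the levels of blood Mo3. These means pool sham and stroke libraries, and no other subtype reached 20 cells in a sham library. Within day 2 MdC3 averaged 22.2 CPM of Ace, 46.9 of Treml4 and 26.2 of Spn, where the next subtype averaged 16.3, 12.2 and 11.9 CPM. At day 14 it averaged 65.3, 37.6 and 38.8 CPM, and the next subtype 11.6, 11.6 and 10.8 CPM. Eno3 did not set MdC3 apart after stroke, at 15.4 CPM at day 2, where MdC6 averaged 17.4, and 13.8 CPM at day 14, where MdC2 averaged 13.1. MdC3 also carried 1532 CPM of Ly6c2 and 4203 of Plac8. MdC3 made up 75.7% ± 10.8 (SD, n = 4) of MdC after sham, 14.7% ± 2.3 (n = 4) at day 2 and 13% ± 5.2 (n = 4) at day 14. Inside MdC3, Spn was 87.7, 104, 163 and 178 CPM after sham, 36.7, 9.4, 29.9 and 28.9 CPM at day 2 and 34.3, 63.7, 12 and 45.1 CPM at day 14. All sham values of Spn lay above all its stroke values. This did not hold for Ace, Treml4 or Eno3, since sham replicate 4 held no count of them in its MdC, MdC3 included. None of the 4 nonclassical genes passed the low-count filter among MdC3 cells, so these values are a description. The fit of MdC3 cells alone, which tested 1630 genes, gave Ly6c2 at day 14 a difference of 1.37 from sham (adjusted p = 0.0772).

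Among the MdC subtypes Ly6c2 was highest in MdC4, at 3600 CPM on average, and MdC4 held 43.0% of its counts in young MdC. Within MdC4 it was 2509, 1412, 2747 and 2756 CPM at day 2 and 5285, 4454, 5894 and 3746 CPM at day 14, with no overlap, and the share of MdC4 among MdC was 12.5% and 24.8%. MdC1, which was 31.5% of MdC at day 2, and MdC6, 34.0% at day 14, were low in the classical genes: Plac8 averaged 455 and 554 CPM there, and Ly6c2 591 and 623 CPM. Among these subtypes Vcan was highest in MdC3 and MdC2, at 378 and 333 CPM, and lowest in MdC6, at 8.5 CPM. These means pool groups, and only that of MdC3 includes sham libraries. MdC2 held 44.0% of the Vcan counts in young MdC and MdC3 28.6%.

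The share of cells with each gene was also taken. A cell was counted for a gene when its value was above 0.5. Of Mo cells, 10.2% had Ace after sham, 5.50% at day 2 and 8.19% at day 14, and of young MdC 5.03%, 0.692% and 1.07%. With Mo cells thinned to 300 counts, their Ace shares were 4.80%, 2.67% and 3.29%. The sham MdC share of Ace rests on replicate 1, with 13 of 99 cells, and without it 3 of 219 cells (1.37%) had the gene. The day 2 share was 0.454% without replicate 1. Microglia of the same libraries, which should lack Ace, Spn and Treml4, had Ace in 0 of 10874 cells after sham, 0.0371% at day 2 and 0.135% at day 14. For Spn the shares in MdC were 4.72%, 0.789% and 1.10%, against 0%, 0.111% and 0.174% of microglia. For Treml4 they were 6.29%, 1.54% and 0.828%, against 0.0092%, 0.111% and 0.0193%. Eno3 was found in 2.20%, 0.692% and 0.690% of MdC and in 1.12%, 1.78% and 0.851% of microglia. Median counts a cell ran over these libraries from 316 to 1753 in MdC and from 329.9 to 2042 in microglia. Thinned to 300 counts a cell, leaving out 53 shallower sham cells, 770 at day 2 and 328 at day 14, the Ace shares were 2.64%, 0.232% and 0.272%. Spn was then at 1.89%, 0.279% and 0.272%, Treml4 at 1.51%, 0.511% and 0.467%, and Eno3 at 1.51%, 0.217% and 0.195%. The thinned sham shares rest on 7 cells for Ace, 5 for Spn and 4 each for Treml4 and Eno3. Ly6c2 was found in 23.6%, 39.9% and 52.4% of MdC over the 3 groups, and in 14.7%, 19.6% and 33.3% after thinning. In microglia its shares were 0.0092%, 0.446% and 1.49%, with 6.75% in the highest day 14 library.

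Cells with at least 2 of the 4 nonclassical genes were counted as well, by a rule chosen after the values were seen. Such cells were 298 of 2401 Mo cells after sham (12.4%, exact 95% interval 11.1 to 13.8, counting error only), 123 of 1800 at day 2 (6.83%, and 10.4% without replicate 3) and 235 of 2357 at day 14 (9.97%). The sham share was 8.39% without replicate 1, so the order of sham and day 2 rests on single libraries. These cells were not counted at equal depth, and median counts a Mo cell ran from 433 to 1306 over libraries. In Mo3 the shares were 37.9%, 33.6% and 32.0%. Among blood B cells there were 0 in 6956, 0 in 5120 and 0 in 6263. In young MdC they were 8 of 318 after sham (2.52%, interval 1.09 to 4.90), 22 of 7225 at day 2 (0.304%, 0.191 to 0.461) and 4 of 2898 at day 14 (0.138%). Of the 22 at day 2, 17 were in MdC3. In aged MdC they were 7 of 85 after sham (8.24%) and 6 of 1940 at day 2 (0.309%).

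**Figure D5:**
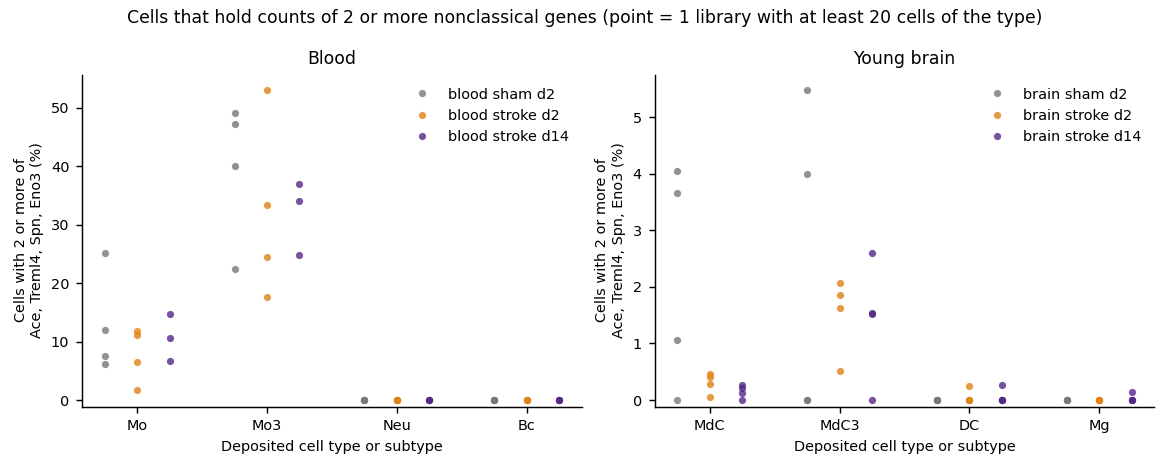
Percent of cells with at least 2 of the 4 nonclassical genes (vertical axis), one point per library with at least 20 cells of the type. Blood is shown by Mo, Mo3, neutrophils and B cells, and young brain by MdC, MdC3, DC and microglia. Mo3 libraries lie at 17.6 to 53.0% and Mo at 1.74 to 25.1%, with sham Mo at 6.23 to 25.1%. Young sham MdC lie at 0 to 4.04% and young stroke MdC at 0.464% or less. Sham MdC thus lie below the sham and day 14 Mo libraries, and the Mo of day 2 replicate 3, at 1.74%, lie within the sham MdC range.

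Other cell types carried several of the genes. Over blood libraries Ly6c2 was 2711 ± 1051 CPM (SD, n = 3) in the class pre, 1221 ± 384 (n = 11) in Mo, and lower in the other classes. Vcan was 372 ± 303 CPM in Mo and 92.5 ± 113 in pre, a gap no larger than the spread of Mo. Plac8 was highest in Mo among the blood classes, at 3534 ± 1099 CPM. In young brain it was found in 63.0% of DC at day 2 and 55.4% at day 14, against 56.2% and 56.5% of MdC. After sham these shares were 19.4% of DC and 60.4% of MdC. In young brain, Ly6c2 was 1276 ± 730 CPM (n = 12) in MdC and, by subtype, reached 9850 ± 1977 CPM in DC8. In endothelial cells Ly6c1 was 7229 ± 1831 CPM and Ly6c2 309 ± 264 CPM.

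Among the nonclassical genes, Spn was not led by monocytes in blood: it was 460 ± 132 CPM (SD, n = 11) in NK cells, 315 ± 237 (n = 7) in the class Eos.Bas and 176 ± 72.7 (n = 11) in Mo. Neighbors in this order differed by less than their spread, and NK cells and Mo by more than the sum of their SDs. Treml4 led in Mo at 181 ± 68.7 CPM, with Mo3 above every other subtype. Ace was 120 ± 58.9 CPM in Mo and 440 CPM in the class Epi of young brain, which had 1 library of 23 cells. Endothelial cells carried 34.2 ± 35.1 CPM (n = 12) of it in young brain, where MdC had 21.6 ± 44.3 (n = 12), and 76.4 ± 60.3 CPM (n = 6) in aged brain. Aged MdC, sham and stroke libraries together, had 39.7 ± 52.9 CPM, a mean that pools 108 CPM after sham with 2.13 CPM at day 2 after stroke and 16.9 CPM in the day 14 library. Eno3 was 111 ± 58.6 CPM in Mo, 42.3 ± 67.9 (n = 6) in blood DC and 258 ± 167 in the young brain subtype DC5.

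Likeness was measured as Pearson's r of log2(CPM + 1) over 75 subtypes with at least 100 cells, for 13330 genes, and subtypes of one table share libraries and depth, so the values are descriptions. Closest to Ly6c2 were Anxa2, Vim and S100a6 (all 0.71), and to Plac8 Napsa (0.82), Cytip (0.76) and Scand1 (0.74). Closest to Vcan were Chil4 (0.80), Tnfsf13os (0.77) and Ms4a8a (0.76). For Ace they were Nxpe4 (0.80), Plcb1 (0.80) and Plekhg1 (0.79), and for Treml4 Krt80 (0.78), Gpr141 (0.75) and Ear2 (0.75). Spn was closest to Itgb7 (0.80), Ppp2r5c (0.78) and Fam189b (0.78), and Eno3 to Castor2 (0.62), Txnrd2 (0.59) and Ears2 (0.59). The members themselves correlated at -0.17 to 0.54, so over all subtypes no member had another member among its 3 closest genes.

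Companion genes of the same kinds were followed as 3 lists, whose genes were picked with earlier results of these data in view. Of 12 nonclassical companions, 10 were tested in brain MdC. At day 2, 4 fell and 0 rose, where 1.05% of all genes fell, with a median log2 difference of -1.68 against 0.29 over all genes. The largest falls were in Adgre4 (-3.43), an adhesion receptor, Ear2 (-2.66), a ribonuclease, and Itgal (-1.96), the integrin chain of LFA-1. At day 14, 5 fell, against 0.941% of all genes, led by Ear2 (-3.93), Adgre4 (-3.31) and the adhesion molecule Ceacam1 (-2.36). In aged brain 4 of 12 fell at day 2, against 0.245% of all genes, with Adgre4 at -4.76. In blood at day 14 against day 2, 0 of 12 passed, where 0.537% of all genes did, with a median of 0.57 against -0.0091 over all genes. Against stroke blood, 7 of 12 were lower in stroke brain at each time, led by Cd300e and Ear2, where 12.4% of all genes were lower at day 2 and 7.78% at day 14, while Nr4a1, the factor of the nonclassical fate (singled out after its values were seen), was higher (1.82 at day 2 and 1.44 at day 14, where 14% and 8.64% of all genes were higher). After sham 1 companion was higher and 1 lower, against 1.75% and 0.694% of all genes. Mean Nr4a1 was 923 CPM in young sham MdC against 184 CPM in sham Mo, 503 against 182 CPM at day 2 and 549 against 237 CPM at day 14. The gap was thus not particular to stroke brain. Nr4a1 levels, untested, also stood higher in other brain types than in the blood types of the same name: 247 ± 150 CPM (SD, n = 11) against 1.08 ± 2.09 (n = 11) in T cells, 240.5 ± 169 (n = 9) against 3.41 ± 2.97 (n = 11) in B cells and 506 ± 188 (n = 12) against 9.2 ± 14.3 (n = 6) in DC.

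Of 10 classical companions in brain, 1 was called at day 2, Mmp8 (-1.28), and 4 at day 14, all lower, against 1.05% and 0.941% of all genes: the largest falls were in Chil3 (-2.71), a chitinase-like protein, haptoglobin Hp (-2.01) and Mmp8 (-1.75). In blood 3 were called lower at day 14 against day 2, against 0.447% of all genes, with Mmp8 at -2.37, Chil3 at -2.12 and Hp at -1.36, beside the fall of Vcan. Hp was also the 1 companion called in blood at day 14 against sham (-1.03), where 0.149% of all genes were lower. Against stroke blood, 7 of 10 were lower in stroke brain at day 2 (median -1.36) and 5 of 10 at day 14 (median -0.88), where 12.4% and 7.78% of all genes were. In aged brain at day 2, 1 was called higher, Chil3 (1.87), and 0 lower, with a median of 0.26 against 0.44 over all genes. In brain MdC at day 14 Ly6c2 was therefore above its sham level while Chil3 and Hp were below theirs. Of 10 genes of macrophage maturation, 4 rose in brain MdC at day 2 and 8 at day 14, and 0 fell. Of all genes 5.66% and 4.21% rose, and that most calls were higher depends on the scaling, as given above. Between the stroke times Apoe (1.95) and Gpnmb (1.87) were higher at day 14 and Chil3 (-2.57) lower, where 0.829% and 0.965% of all genes were. Apoe, a lipid carrier, was 1.85 and 3.80 higher at the 2 times, and Ms4a7 2.54 and 3.45 higher. In aged brain 4 rose at day 2, against 2.31% of all genes, with Ms4a7 at 5.55 and the complement gene C1qb at 3.98.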

How the data were processed

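The submitters' processing notes name the mm10 build and the tool Seurat. The authors deposited expected counts per gene and cell, which were not whole numbers, and the step that made them so is not given in the sources used here. The authors also deposited each cell's percent of mitochondrial counts and their own cell type codes at 2 levels, which were used unchanged. The members and companion lists were chosen with earlier results of these data known.

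The deposited counts were summed per library over the cells of a type, for libraries with at least 20 such cells, and rounded. Library totals ran from 819438 to 5855050 counts, with a median of 320.8 to 1363.2 counts a cell. Libraries shared at most 7 cell barcodes. No doublet caller was run, and leaving out cells above the 95th percentile of counts stood in for one. Sums were fitted with edgeR 4.0.16 (R 4.3.3, TMM scaling, filterByExpr, quasi-likelihood F-test) over all genes, with Benjamini-Hochberg adjustment and a threshold of 0.05. The SE of a log2 difference is its size divided by the square root of F. DESeq2 1.42.0 was an alternative. The scripts were tested on simulated data. Promoters came from RefSeq tables and gene places from the GENCODE annotation.

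The 7 members are named in every comparison, and of each companion list at most the 3 called genes of largest difference. Same-numbered libraries were checked for shared deviations from their group means. At day 14 against day 2 in the brain all 4 pairs correlated (0.268, 0.758, 0.670 and 0.349). The blocked fit is therefore set beside the main one there and is an alternative elsewhere. Its block term also covered the sham libraries. Sample titles give replicate numbers and do not name pairs. Replicates 1 and 2 of both stroke times are also the ones under 1% mitochondrial counts, and the shared deviations were not separated from that split.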

Additional observations from a re-analysis of the deposited data

Results flagged for a closer look

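Vcan in brain MdC at day 14 was 219 CPM in replicate 4, far from the other 3 libraries of its group, which lay at 34.3 to 65.3 CPM. Chance marks about 5% of groups in this way, and 1 of the 35 groups examined was marked.

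The single aged female library at day 14 after stroke, which entered no comparison, held 2983 CPM of Ly6c2 and 5876 CPM of Plac8 in its 87 MdC, above both aged sham libraries (at most 1378 and 3830 CPM). In the same library Vcan was 17.4 CPM, Treml4 69.5 CPM, Eno3 69.6 CPM, Ace 16.9 CPM and Spn 13.7 CPM.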

How the results depend on the processing

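Of the alternatives to the log2 differences of members past the threshold, 215 kept call and direction, 12 lost the call (5 results) and none reversed. Of those of members not past it, 869 kept side and direction, 18 passed (9 results) and 72 changed sign (26 results). The number of members called stayed within 1.5 times in 163 cases and moved in 15. It moved from 0 to 1 in blood at day 14 against sham (DESeq2, no filter on low counts, the block), from 0 to 1 with DESeq2 in brain at day 14 against day 2, and in aged brain from 1 to 4 with DESeq2 and to 3 with no filter. Over MdC3 cells alone, added after seeing the data, it was 0 in brain at both times. Leaving out 1 library gave 0 to 1 members in blood at day 14 against sham, in blood and in brain at day 14 against day 2 and between tissues after sham, and 0 to 2 in aged brain.

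With the replicate number as a block, brain at day 14 against day 2 had 2 members called (Ly6c2 1.28, Vcan -1.39) and blood at day 14 against sham 1 (Vcan -2.10). Vcan in brain at day 14 against sham also passed (-1.57). The block turned Plac8 to 0.20, Ace to 0.064 and Eno3 to 0.11 in blood at day 14 against sham, and Vcan to -0.086 in aged against young brain. It changed no other member's call.

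Sign changes of members not past the threshold follow, and the cause was not tested. With library size in place of TMM, Plac8 was 0.023 in blood at day 14 and -0.23 and -0.12 in brain at days 2 and 14 against sham. Aged brain then gave Ly6c2 -0.30, Plac8 -0.49 and Vcan -0.015, and brain against blood Ly6c2 -0.16 at day 2 and Vcan -0.00032 at day 14. With DESeq2 aged brain gave Ly6c2 -0.11 and Plac8 -0.31, and Ace was 0.0065 in the difference between tissues. With no filter Plac8 was 0.031 in blood at day 14 and -0.17 in brain at day 14 against day 2, and Vcan 0.16 in brain at day 2. Without the cells of highest counts Ly6c2 was 0.012 in blood at day 2, and Vcan 0.037 in brain at day 2 and -0.00027 in aged against young. With sex as a covariate Plac8 was -0.25 in aged brain, and aged against young gave Ly6c2 -0.50, Plac8 -0.64 and Eno3 -0.016. In MdC3 alone Vcan was 0.34 at day 2 and Plac8 -0.13 at day 14 against day 2. In libraries over 1% mitochondrial counts, also added later, Plac8 was -0.085 and Eno3 -0.90 at day 14 against day 2.

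Leaving out 1 library in blood at day 2 gave Ly6c2 -0.20 to 0.19 and Plac8 -0.44 to 0.032. In blood at day 14 it gave Plac8 -0.23 to 0.26, Ace -0.29 to 0.35, Spn -0.084 to 0.47 and Eno3 -0.45 to 0.15, and against day 2 Plac8 -0.00067 to 0.40. In brain at day 2 it gave Plac8 -0.044 to 0.54 and Vcan -0.48 to 0.091, and at day 14 against day 2 Plac8 -0.29 to 0.33 and Eno3 -0.45 to 0.58. Between tissues it gave Vcan -0.62 to 0.083 after sham, Ly6c2 -0.092 to 0.45 and Plac8 -0.43 to 0.19 at day 2, and Vcan -0.57 to 0.56 at day 14. The difference between tissues ran from -0.54 to 0.11 for Plac8 and -0.41 to 0.20 for Ace. Aged brain gave Ly6c2 -0.21 to 0.71, Plac8 -0.48 to 0.56 and Eno3 -4.37 to 6.00, and aged against young Ly6c2 -0.24 to 0.60, Plac8 -0.31 to 0.66 and Vcan -0.12 to 0.35.

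The share of called genes that were higher moved with library size scaling from 71.6% to 83.2% between tissues after sham, from 52.9% to 34.8% at day 2 and from 52.6% to 38.6% at day 14. It moved from 90.4% to 47.7% in aged brain and from 16.7% to 27.9% in blood at day 14 against day 2. Genes called ranged over settings from 0 to 703 for brain at day 2, 11 to 541 at day 14 and 5 to 469 between them. In blood they ranged from 8 to 97 at day 14 against sham and 36 to 128 against day 2, and in aged brain from 107 to 326. Leaving out 1 library took them to 284 to 481 in brain at day 2, 246 to 349 at day 14 and 45 to 191 between them, 2 to 27 in blood at day 14 against sham, 11 to 35 against day 2, 8 to 167 in aged brain and 91 to 188 between tissues after sham. The background percentages rest on these counts. The lowest brain counts come from MdC3 cells alone, where fewer genes were tested. Depth limits the nonclassical genes most, since a sham brain library held at most 17.5 counts of Ace.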
